A study of Mus musculus with 4 samples.

Results

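The Rnf and Trim genes are numbered families of genes for RING-type ubiquitin ligases and their relatives, and they were followed here in mouse CD4+ T cells that lacked another RING ligase, Bfar. Members were the genes whose symbol starts with Rnf or Trim followed by a digit and that were listed in all 4 deposited tables; Rnf5, Rnf121, Rnf139, Rnf185 and Trim13 were left out. This gave 117 genes, 67 Rnf and 50 Trim, of the 14469 genes listed in all 4 tables. A further 12 Rnf and Trim genes were missing from at least 1 table and are not members; none of them had more than 6 reads in a library. The tested cells were Bfar-/- CD4+ T cells, from C57BL/6 mice with a T cell-conditional deficiency, and they were set against cells of wild-type C57BL/6 mice. All mice were 6 to 8 weeks old. Cells of both genotypes were sorted from spleen and lymph nodes as naive CD4+CD44loCD62Lhi T cells and cultured for 3 days with anti-CD3 and anti-CD28 under conditions that direct helper cells to make interleukin 9 (Th9). The sources used here name neither the Cre driver nor the part of Bfar that was deleted. Each genotype had 2 libraries, and no label says that different animals gave them, so each p-value reflects the spread of these libraries alone, which may be of technical origin.

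Ubiquitin is passed from an activating enzyme (E1) to a conjugating enzyme (E2), and a ligase (E3) then brings the loaded E2 to the protein that is to be marked. RING ligases do this with a zinc-binding RING domain that docks the E2. TRIM proteins carry a RING, B-box and coiled-coil domain in a row, and many of them act in antiviral defence, whereas RNF proteins share little beyond the RING and work at membranes, on chromatin and in immune signalling. In T cells such ligases are known for setting activation thresholds, NF-kB signalling and anergy.

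The libraries held 19321076 and 19058009 expected counts in Bfar-/- cells and 19782923 and 19736182 in wild-type cells. Bfar had 8.45 and 7.79 CPM (counts divided by the TMM-scaled library size and given per 1000000) in the Bfar-/- libraries, against 36.4 and 32.9 CPM in the wild-type libraries, so its level matched the label in all 4. The T cell markers Cd3d, Cd3e, Cd3g, Cd4, Lck and Cd28 summed to 1770 to 1820 CPM in Bfar-/- and 1623 to 1627 CPM in wild-type libraries, and 4 of the 6 rose; Trac, the seventh marker, is not listed. Summed markers of B cells stood at 4.42 to 4.77 CPM in Bfar-/- and 5.30 to 5.31 CPM in wild-type libraries, those of myeloid cells at 5.21 to 5.49 and 4.61 to 5.0 CPM, those of dendritic cells at 5.58 to 5.70 and 4.69 to 5.97 CPM, and those of CD8 T and natural killer cells at 10.1 to 12.0 and 10.7 to 11.4 CPM, with Ncr1, Lyz2 and Csf1r not listed. Of the markers tested for these other cells, 1 was called, the dendritic cell receptor gene Xcr1, with 2.38 and 2.63 CPM in Bfar-/- and 1.21 and 1.01 CPM in wild-type libraries, whereas the dendritic cell integrin gene Itgax had 0.829 and 0.474 CPM in Bfar-/- and 1.11 and 1.42 CPM in wild-type libraries and was not called. The part of other cells in the results below was not tested. In bulk RNA, fewer cells of a type and less RNA per cell cannot be told apart.

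Loss of Bfar came with small shifts in these ligase genes. Of the 103 members abundant enough to be tested, 16 rose and 9 fell in Bfar-/- cells (edgeR quasi-likelihood test, Benjamini-Hochberg adjusted p under 0.05 over 12677 genes). Together this is 24.3% of the tested members, beside 26.8% of all genes tested, with 13.6% of all genes called higher and 13.2% called lower. The members' share was near that of all genes. Both Bfar-/- values lay above both wild-type values for 39 of the 103 tested members and below them for 23. Over all genes tested, 31.6% lay above and 31.9% below. In both directions together this is 60.2% of the tested members, beside 63.5% of all genes. The median log2 fold change was 0.02 over the tested members and 0.00 over all genes, and the median absolute value was 0.12 and 0.14. The median fold among the 25 called members was 1.17, and 17 of them moved by less than 1.2-fold. When edgeR's glmTreat asked for more than a 1.2-fold change, it called 2 members, Rnf152 and Trim16, beside 4.45% of all genes.

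The precision differed with abundance. The 61 tested members with a mean of at least 20 CPM had a median standard error of 0.05 on the log2 scale, and 21 of them were called (34.4%), beside 35.0% of all genes at that level. The 42 members below 20 CPM had a median standard error of 0.17 and 4 calls (9.52%), beside 15.9% of all genes at that level. The 95% interval of the log2 fold change lay within a 1.2-fold change in either direction for 40 of the 103 tested members. The other 14 members had at most 15 reads in any library and could not be tested. Among Rnf genes 14 of 62 rose and 5 fell (30.6% called), and among Trim genes 2 of 41 rose and 4 fell (14.6%). Beside them, 13.6% of all genes were called higher and 13.2% lower. Trim genes were measured less precisely, with a median standard error of 0.10 against 0.06 for Rnf genes. Their median absolute log2 fold change was 0.16, against 0.12 for Rnf genes. The difference between both families was not tested. The plot of change against abundance shows the wide intervals at low counts.

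**Figure D1:**
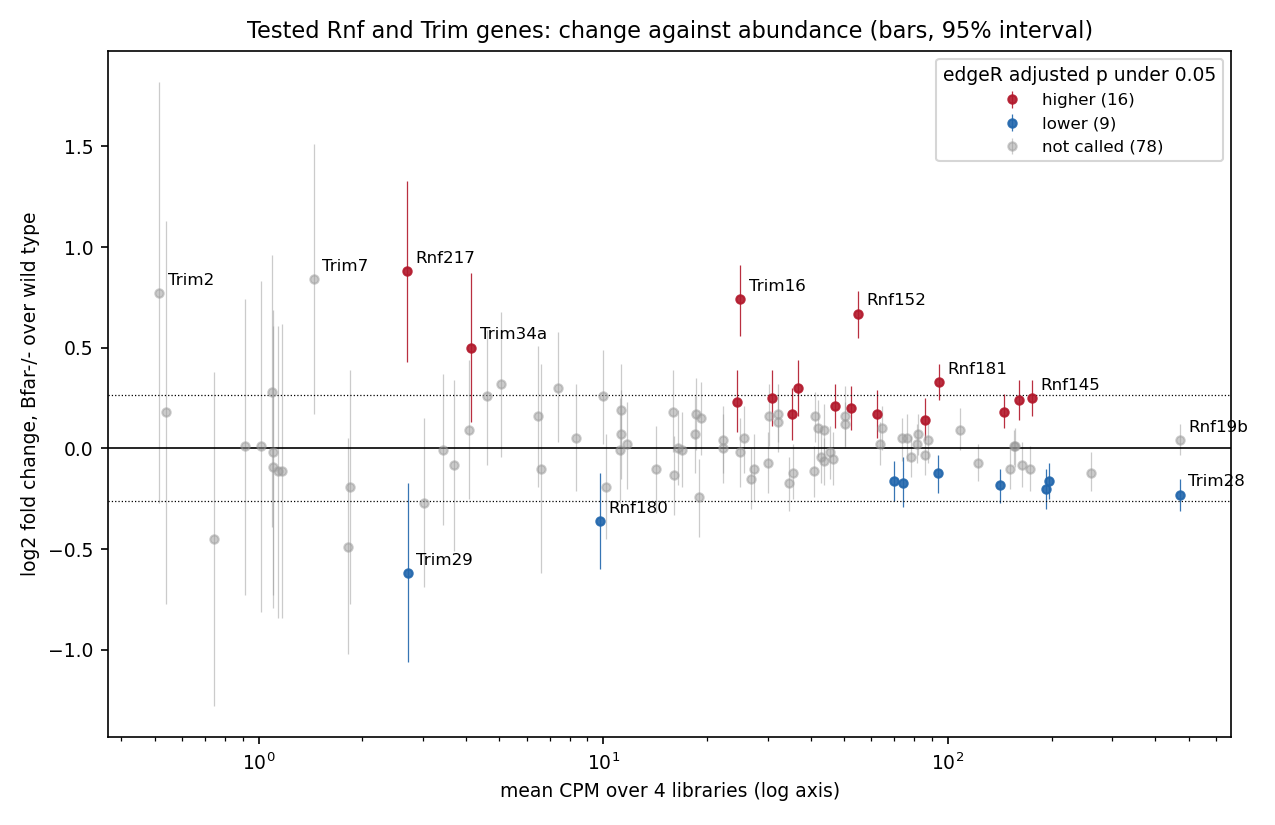
Log2 fold change, Bfar-/- over wild type, of the 103 tested Rnf and Trim genes against their mean CPM over 4 libraries (log axis). Bars are 95% intervals and dotted lines mark a 1.2-fold change. The intervals of Rnf152, Trim16 and the low-level gene Rnf217 lie above the upper line. Those of Trim28 and Rnf19b, the most abundant by CPM, lie inside or close to the band.

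Rnf152 had the smallest adjusted p of the members and encodes a lysosomal membrane ligase that marks RagA and restrains mTORC1. Rnf152 (gene 320311, chr1:105276917-105356991, GRCm38) had 66.0 and 68.5 CPM in the Bfar-/- libraries, against 43.4 and 41.2 CPM in the wild-type libraries. Both Bfar-/- values lay well above both wild-type values. Its log2 fold change was 0.67 ± 0.05 (SE, n = 2 per genotype; edgeR adjusted p = 4.18e-07), a 1.59-fold rise, and its 95% interval ran from 0.55 to 0.78.

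Trim16 encodes a TRIM-family protein without a RING domain that is known for work in the autophagy of damaged lysosomes. Trim16 (gene 94092, chr11:62820198-62842948) had 598 and 596 reads in the Bfar-/- libraries, against 398 and 343 reads in the wild-type libraries. This is 31.2 ± 0.276 CPM in Bfar-/- and 18.7 ± 1.93 CPM in wild-type cells (SD, n = 2 each), and the genotypes did not overlap. The log2 fold change was 0.74 ± 0.08 (SE; edgeR adjusted p = 1.13e-05), a 1.67-fold rise. Rnf152 and Trim16 passed in every alternative fit tried.

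Rnf181, a small RING ligase, was among the most abundant members. Rnf181 (gene 66510, chr6:72359712-72366994) had 104.3 and 105.4 CPM in the Bfar-/- libraries, against 81.7 and 85.0 CPM in the wild-type libraries. The rise was 0.33 ± 0.04 in log2 terms (edgeR adjusted p = 6.47e-05). Rnf145, an endoplasmic reticulum ligase that acts on HMG-CoA reductase when sterols are high, had 188.0 and 194.4 CPM in the Bfar-/- libraries, against 156.8 and 164.4 CPM in the wild-type libraries. Rnf145 (gene 74315, chr11:44518793-44565520) had a log2 fold change of 0.25 ± 0.04, with an edgeR adjusted p of 3.83e-04. For both genes the 2 Bfar-/- libraries were the higher pair.

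Trim28 gave the clearest fall. It encodes KAP1, the corepressor that KRAB zinc finger proteins recruit to silence transposable elements. Trim28 (gene 21849, chr7:13024152-13031032) had 439.8 and 429.0 CPM in the Bfar-/- libraries, against 517.9 and 501.3 CPM in the wild-type libraries. The fall was small beside its level, at -0.23 ± 0.04 in log2 terms (edgeR adjusted p = 2.69e-04) with a 95% interval from -0.31 to -0.15. These 5 genes, Rnf152, Trim16, Rnf181, Rnf145 and Trim28, were the members that kept their call with any 1 library left out, and for Rnf181, Rnf145 and Trim28 the glmTreat test against a 1.2-fold change was the single alternative that ended it.

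The other 20 calls each fell away in at least 1 fit without a library. Without Bfar-/- replicate 2, 19 calls were lost, with adjusted p between 0.0593 and 0.421; those that stayed were the 5 above and Trim27. Without Bfar-/- replicate 1, 13 were lost (0.0522 to 0.215): Rnf208, Trim27, Rnf11, Rnf167, Rnf6, Rnf115, Rnf180, Rnf130, Rnf111, Trim29, Trim34a, Rnf41 and Rnf20. Without wild type replicate 1, 13 were lost (0.0516 to 0.288): Rnf187, Rnf167, Rnf6, Trim35, Rnf115, Rnf180, Rnf130, Trim29, Rnf31, Trim34a, Rnf220, Rnf41 and Rnf20. Without wild type replicate 2, 10 were lost (0.0548 to 0.333): Rnf208, Rnf11, Rnf115, Rnf130, Rnf111, Trim29, Rnf31, Rnf220, Rnf41 and Rnf20. No called member turned its direction in these fits. DESeq2 kept 11 of the 25 calls, and the test with no filter on low counts kept 13.

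**Figure D2:**
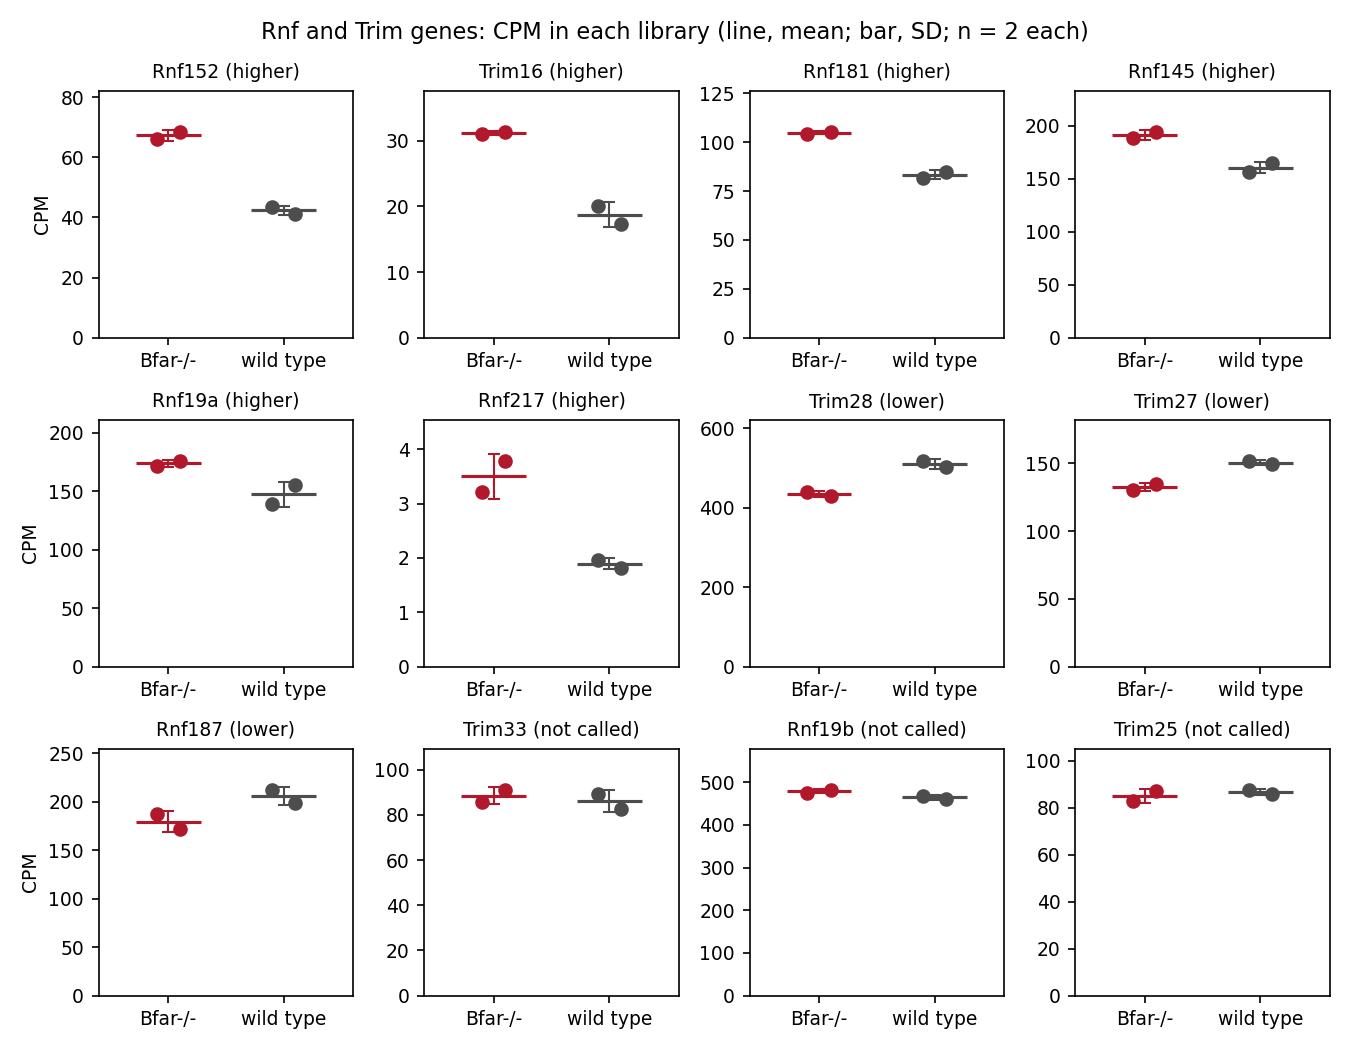
CPM of 12 Rnf and Trim genes in each library, Bfar-/- left of wild type (points, libraries; line, mean; bar, SD; n = 2 per genotype; every axis starts at 0). The first 6 genes were called higher and Trim28, Trim27 and Rnf187 lower, while Trim33, Rnf19b and Trim25 were not called, and the Trim33 and Trim25 values overlap between genotypes.

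Among the 12 tested members linked to T cell signalling and NF-kB, 5 rose and 1 fell (50%, beside 26.8% of all genes). Their median log2 fold change was 0.16. All but Rnf128 had a mean of at least 20 CPM, where 35.0% of all genes were called. Rnf19a, a RING-between-RING ligase also called dorfin, had 171.4 and 176.1 CPM in the Bfar-/- libraries, against 139.5 and 155.0 CPM in the wild-type libraries (log2 fold change 0.24 ± 0.05; edgeR adjusted p = 0.00195, and 0.0844 without Bfar-/- replicate 2). Its close relative Rnf19b, which in mouse natural killer cells is needed for full killing, was the most abundant member per length, with a mean of 185.7 FPKM over the 4 libraries. Rnf19b had 475.5 and 482.7 CPM in the Bfar-/- libraries and 468.1 and 461.0 CPM in the wild-type libraries, and its 95% interval, -0.03 to 0.12 on the log2 scale, lies below the 0.24 of Rnf19a; the difference between both genes was not tested.

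Rnf11, a partner of the NF-kB inhibitor A20, had 51.1 and 50.1 CPM in the Bfar-/- libraries, against 44.0 and 43.5 CPM in the wild-type libraries (log2 fold change 0.21 ± 0.05; edgeR adjusted p = 0.00908). Rnf31 encodes HOIP, the catalytic subunit of the linear ubiquitin assembly complex, and had 86.1 and 93.6 CPM in the Bfar-/- libraries, against 81.7 and 81.1 CPM in the wild-type libraries (0.14 ± 0.05; edgeR adjusted p = 0.0422). Rnf130 and Rnf167, transmembrane ligases of the same family as the anergy factor GRAIL, rose by 0.23 ± 0.07 and 0.25 ± 0.07 on the log2 scale. Each of these 4 rises was lost without Bfar-/- replicate 2, and the group then held no riser, against 5 with all libraries. With DESeq2 the group held 1.

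Trim27, which restrains CD4 T cell activation through the lipid kinase PI3K-C2 beta, was the member of this group that fell. It had 130.4 and 134.8 CPM in the Bfar-/- libraries, against 152.0 and 149.2 CPM in the wild-type libraries, and fell by 0.18 ± 0.04 in log2 terms (adjusted p of edgeR 0.00378, and 0.0642 without Bfar-/- replicate 1). Rnf128, which encodes GRAIL itself, was near the detection limit, at 1.24 and 1.16 CPM in the Bfar-/- libraries and 0.908 and 1.06 CPM in the wild-type libraries. Its interval, from -0.39 to 0.96 on the log2 scale, leaves a change of either sign possible.

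Of 7 tested members of the group of TGF-beta and transcription regulators, 2 rose and 1, Trim28, fell (42.9%, beside 26.8% of all genes). All but Trim66 had a mean of at least 20 CPM, where 35.0% of all genes were called. Rnf111 encodes Arkadia, which marks the inhibitors SMAD7, SKI and SnoN for destruction and so favours TGF-beta signalling. Rnf111 had 66.7 and 65.4 CPM in the Bfar-/- libraries, against 61.7 and 55.8 CPM in the wild-type libraries (log2 fold change 0.17 ± 0.05; edgeR adjusted p = 0.0337, up to 0.333 with 1 library left out). The other riser was Rnf6, a nuclear ligase, with 55.8 and 56.0 CPM in the Bfar-/- libraries and 47.8 and 49.6 CPM in the wild-type libraries. Trim33, which binds SMAD2 and SMAD3 and acts on SMAD4, had 85.8 and 91.2 CPM in the Bfar-/- libraries and 89.5 and 82.6 CPM in the wild-type libraries. Its values overlapped, and the 95% interval of its log2 fold change was -0.07 to 0.15. Trim24, of the same TIF1 family as Trim28 and Trim33, showed 0.10 ± 0.05 in log2 terms (edgeR adjusted p = 0.169), and Rnf4, the SUMO-targeted ligase, one of 0.01 ± 0.04.

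The 13 tested members of the chromatin and DNA damage group gave 2 falls and no rise (15.4%, beside 26.8% of all genes). Their median log2 fold change was -0.07. All but Rnf8, Rnf113a1 and Rnf113a2 had a mean of at least 20 CPM, where 35.0% of all genes were called. Rnf20, which with Rnf40 attaches ubiquitin to histone H2B, had 88.2 and 90.8 CPM in the Bfar-/- libraries, against 98.7 and 96.3 CPM in the wild-type libraries (log2 fold change -0.12 ± 0.04; edgeR adjusted p = 0.0493), and this call stood in 1 of 14 alternative fits, the one with a replicate block. Its partner Rnf40 had -0.07 ± 0.04 (edgeR adjusted p = 0.219). The second fall was that of Rnf220 (-0.17 ± 0.06; edgeR adjusted p = 0.0463, and up to 0.421, without Bfar-/- replicate 2). DESeq2 called 0 of the 13 lower. Neither Rnf2, the catalytic RING1B subunit of Polycomb complex PRC1, nor the double-strand break ligases Rnf8 and Rnf168 passed the test, with log2 fold changes of -0.06 ± 0.06, -0.13 ± 0.09 and 0.09 ± 0.06.

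Because Bfar sits in the endoplasmic reticulum, members known from membranes of the endoplasmic reticulum, Golgi and endosomes were read out as a group. Of 21 tested, 5 rose and 1 fell (28.6%, beside 26.8% of all genes), and the median log2 fold change was 0.05. The risers were Rnf152, Rnf145, Rnf19a, Rnf167 and Rnf130, of which 2, Rnf152 and Rnf145, were still called without Bfar-/- replicate 2. Rnf180, a membrane-anchored ligase known from the mouse brain, fell, with 8.60 and 8.48 CPM in the Bfar-/- libraries and 11.5 and 10.5 CPM in the wild-type libraries (log2 fold change -0.36 ± 0.11; edgeR adjusted p = 0.0258, up to 0.178 with 1 library left out). Rnf26, a ligase of the perinuclear endoplasmic reticulum, had 83.4 and 81.0 CPM in the Bfar-/- libraries and 80.5 and 81.3 CPM in the wild-type libraries, and Rnf170, which marks IP3 receptors, showed -0.24 ± 0.09 in log2 terms (edgeR adjusted p = 0.0625).

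**Figure D3:**
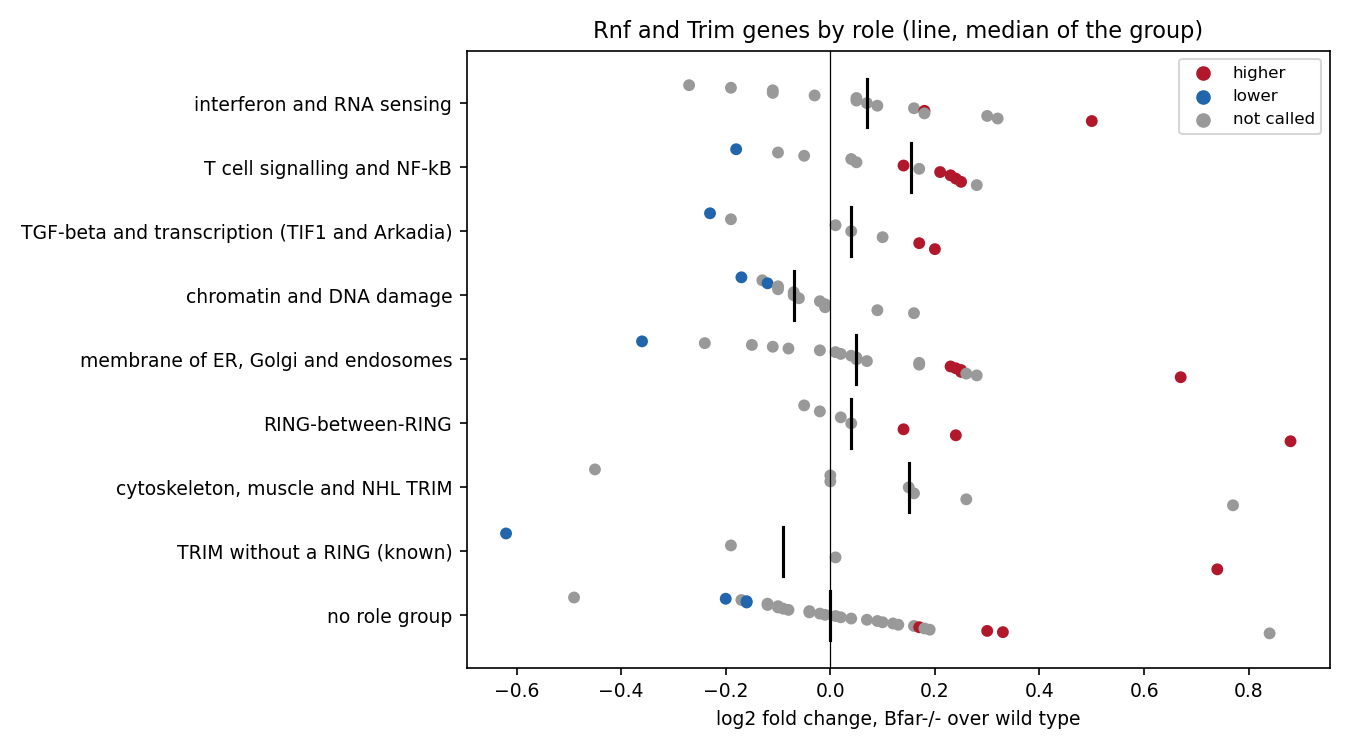
Log2 fold change, Bfar-/- over wild type, of the tested Rnf and Trim genes by role, with a line at each group's median (red, higher; blue, lower; grey, not called). A gene can stand in more than 1 group, and the medians lie between -0.09 and 0.16.

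Of 7 tested RING-between-RING ligases, which carry the ubiquitin on their own cysteine before passing it on, 3 rose and none fell (42.9%, beside 26.8% of all genes). All of the 7 but Rnf144a and Rnf217 had a mean of at least 20 CPM, where 35.0% of all genes were called. The risers were Rnf19a, Rnf31 and Rnf217, the last of which acts on the iron exporter ferroportin. Rnf217 was a low-level gene, with 3.21 and 3.79 CPM in the Bfar-/- libraries, against 1.97 and 1.82 CPM in the wild-type libraries, and its rise of 0.88 ± 0.21 in log2 terms (edgeR adjusted p = 0.00598) was the highest of any tested member. Its call was lost without Bfar-/- replicate 2 (edgeR adjusted p = 0.0814) and in DESeq2. Of 7 tested TRIM genes of the cytoskeleton, muscle and NHL subfamilies, edgeR called 0, beside 26.8% of all genes. None had an unadjusted p under 0.05, and DESeq2 and limma-voom also called 0. All but Trim32 had a mean under 20 CPM, where 15.9% of all genes were called. The median standard error of the 7 was 0.16 on the log2 scale, and 2 had an interval within a 1.2-fold change. With so few genes at this precision, the lack of calls cannot show that the group was unchanged. In 4 of the 7 the genotypes did not overlap, beside 63.5% of all genes. Of 4 tested genes listed here as TRIM genes without a RING, Trim16 rose and Trim29 fell (50%, beside 26.8% of all genes). Trim44 and Trim66 were not called. The RING domain was not checked by sequence, so this list may be incomplete. Trim29 had 1.97 and 2.32 CPM in the Bfar-/- libraries, against 3.08 and 3.49 CPM in the wild-type libraries (log2 fold change -0.62 ± 0.21; edgeR adjusted p = 0.0401), and its call was lost whichever library was left out (edgeR adjusted p 0.0868 to 0.226).

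Many TRIM genes are induced by interferon through a promoter element called the interferon-stimulated response element. A core of that element, GAAA, any 2 bases and GAAA again, was searched on both strands in RefSeq promoters of GRCm38.p6, which span 250 bases before to 50 bases after each start. A promoter was at hand for 91 of the 117 members, and 11 of these (12.1%) held the core, beside 3.99% of 27025 genes. Of the 14 members with a promoter in the interferon and RNA sensing group, 8 held it. Sites are shown with 10 bases on each side, 5′ to 3′ on the strand that carries the core, which is in capitals, 1 site for each gene, because some neighbouring members carry the same letters; Trim21, Trim26 and Trim30a each hold a second site that is not shown:
Trim5, chr7:104288136-104288165, + strand: ctctggaaatGAAACAGAAAccacaactct
Trim12a, chr7:104315466-104315495, + strand: ctctggaaatGAAACAGAAAccacaactct
Trim12c, chr7:104353359-104353388, + strand: agctggaaatGAAACAGAAAccacaactct
Trim30a, chr7:104465210-104465239, + strand: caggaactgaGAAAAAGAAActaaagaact
Trim30d, chr7:104507871-104507900, + strand: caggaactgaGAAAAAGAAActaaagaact
Trim34a, chr7:104244457-104244486, - strand: gcagagaaaaGAAACTGAAActccaaacca
Trim21, chr7:102565450-102565479, - strand: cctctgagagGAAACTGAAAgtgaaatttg
Trim26, chr17:36836976-36837005, - strand: ccgagaaaagGAAAGTGAAAtcggaagcgg

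Trim5 and Trim12a share all 30 of the letters shown, and so do Trim30a and Trim30d. A match is a description of these letters and not a site of binding. Of these 8 genes 1, Trim34a, was called (12.5%, beside 26.8% of all genes), and 1 had a 95% interval within a 1.2-fold change. Their median log2 fold change was -0.02 and the median absolute value 0.19. In 5 of the 8 the genotypes did not overlap, beside 63.5% of all genes. All of the 8 but Trim26 had a mean under 20 CPM, where 15.9% of all genes were called. Trim34a had 5.13 and 4.58 CPM in the Bfar-/- libraries, against 3.08 and 3.80 CPM in the wild-type libraries (log2 fold change 0.50 ± 0.17; edgeR adjusted p = 0.0442). It shares 48.7% of its 31-mers with Trim34b, so its value is uncertain, and it was lost without either Bfar-/- replicate (up to 0.285 with 1 library left out), without wild type replicate 1, and in DESeq2 and limma-voom. Trim5, Trim12a, Trim12c, Trim30a, Trim30b, Trim30d, Trim34a and Trim34b lie in a cluster on chromosome 7; with their counts summed to 1 feature the log2 fold change was 0.11 (edgeR adjusted p = 0.227).

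Trim21, the cytosolic antibody receptor, had 8.81 and 7.48 CPM in the Bfar-/- libraries, against 6.41 and 6.78 CPM in the wild-type libraries. The genotypes did not overlap, but the difference of 0.30 ± 0.13 in log2 terms did not pass (edgeR adjusted p = 0.102). Trim25, which activates the viral RNA sensor RIG-I, had 82.8 and 87.0 CPM in the Bfar-/- libraries and 87.7 and 85.7 CPM in the wild-type libraries, with a 95% interval from -0.13 to 0.07 on the log2 scale. Rnf125, which marks RIG-I for destruction and was first described in T cells, had 4.82 and 6.42 CPM in the Bfar-/- libraries and 4.39 and 4.61 CPM in the wild-type libraries (0.32 ± 0.17; edgeR adjusted p = 0.175). Rnf114, also interferon-responsive in human cells, rose, with 153.7 and 156.1 CPM in the Bfar-/- libraries and 134.5 and 138.2 CPM in the wild-type libraries (0.18 ± 0.04; edgeR adjusted p = 0.00336, and 0.0593 without Bfar-/- replicate 2). Over the whole interferon and RNA sensing group, 2 of 15 tested members rose and none fell, with a median of 0.07. This is 13.3%, beside 26.8% of all genes called in either direction and 13.6% called higher. All but Trim14, Trim25, Trim26, Trim56 and Rnf114 had a mean under 20 CPM, where 15.9% of all genes were called. In DESeq2 and in limma-voom, 1 member of the group rose.

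Beside them, 7 of 15 tested interferon-stimulated genes from outside both families rose and none fell (46.7%, beside 26.8% of all genes), with a median log2 fold change of 0.24; with 1 library left out, 5 to 6 rose. One of the risers, Gbp3, was near the floor and passed the count filter through the Bfar-/- libraries, where it was higher. Gbp3 had 0.518 and 1.21 CPM in the Bfar-/- libraries, against 0.404 and 0.101 CPM in the wild-type libraries. With a filter at a mean of at least 1 CPM, 6 genes of the list rose. The deubiquitinase and interferon feedback gene Usp18 had 23.7 and 26.3 CPM in the Bfar-/- libraries, against 12.4 and 13.3 CPM in the wild-type libraries. The guanylate-binding protein gene Gbp5 rose by 1.10 ± 0.14, Stat2 by 0.38 ± 0.05 and the peptide transporter gene Tap1 by 0.24 ± 0.04 on the log2 scale. The difference between this list and the TRIM genes was not tested.

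**Figure D4:**
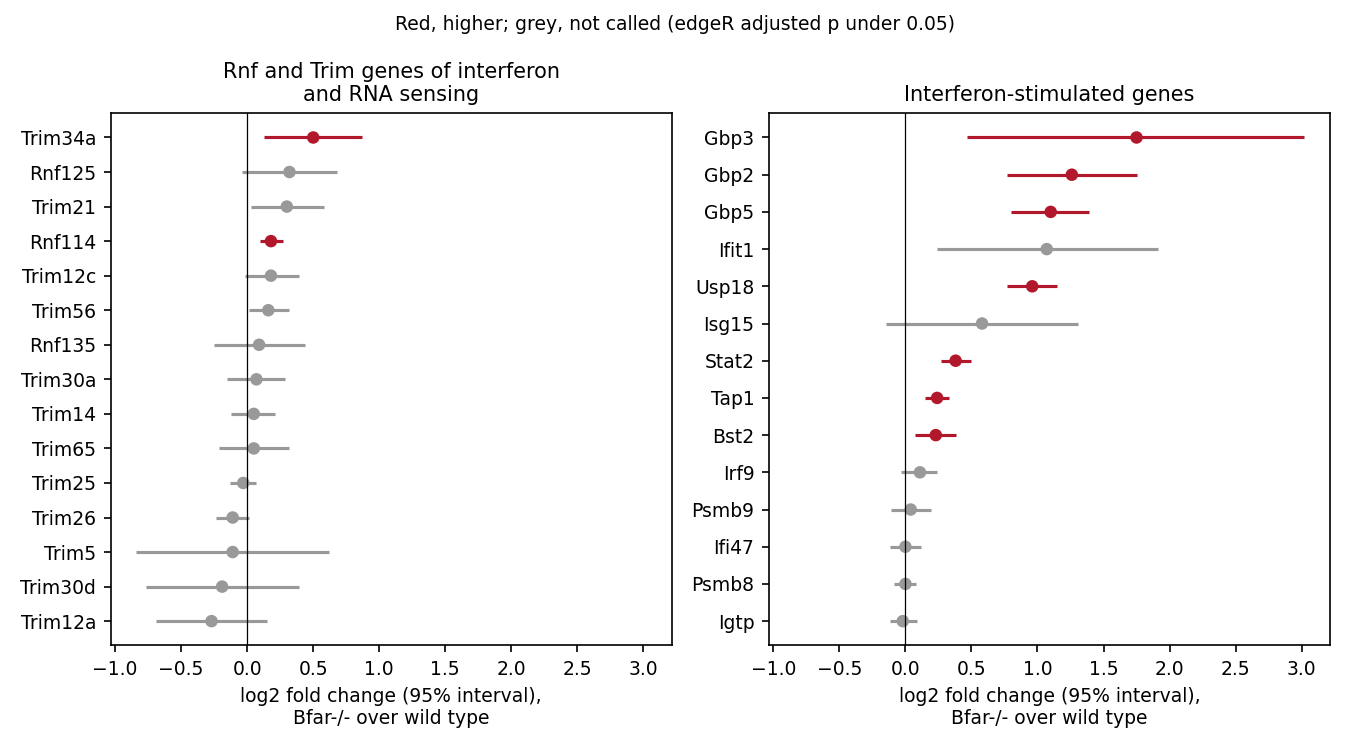
Log2 fold change with its 95% interval, Bfar-/- over wild type, of the 15 tested Rnf and Trim genes of interferon and RNA sensing (left) and of 14 of the 15 tested interferon-stimulated genes (right), on one scale. Red marks genes called higher, 2 on the left and 7 on the right; Trim5, Trim12a and Trim30d have wide intervals because their counts are low.

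Of the 37 members outside these groups, not all of them tested, 3 rose, Rnf181 included, and 3 fell. Beside them, 13.6% of all genes tested were called higher and 13.2% lower. Rnf208 rose by 0.30 ± 0.07 in log2 terms (edgeR adjusted p = 0.00339, up to 0.0725 with 1 library left out). Rnf41, also called Nrdp1, which marks the receptor ErbB3, rose by 0.17 ± 0.06 (edgeR adjusted p = 0.0482). Rnf187, a coactivator of AP-1, had 186.9 and 172.0 CPM in the Bfar-/- libraries, against 212.3 and 198.9 CPM in the wild-type libraries (log2 fold change -0.20 ± 0.05, edgeR adjusted p = 0.00614). The Rnf187 call was lost with no filter on low counts, on both log2 FPKM scales and in some fits with 1 library left out. Trim35 (-0.16 ± 0.04) and Rnf115, a partner of the late endosome GTPase Rab7 (-0.16 ± 0.05), also fell. Rnf10, which marks stalled small ribosomal subunits, had -0.12 ± 0.04 and an edgeR adjusted p of 0.0572. Rnf126, listed with the chromatin and DNA damage group, which serves the quality control of misplaced membrane proteins, was the third most abundant member per length at 106.8 FPKM and had -0.10 ± 0.05 (edgeR adjusted p = 0.169).

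The enzymes that feed these ligases also showed small differences. Of 35 ubiquitin E1 and E2 genes, all tested, 2 rose and 8 fell (28.6%, beside 26.8% of all genes). Their median log2 fold change was -0.06. All but Uba7, Ube2d1, Ube2e2, Ube2e3, Ube2l6 and Ube2t had a mean of at least 20 CPM, where 35.0% of all genes were called. The falls numbered 4 without Bfar-/- replicate 1, 3 without Bfar-/- replicate 2, 4 without wild type replicate 1 and 4 in DESeq2. Ube2k, an E2 that builds K48-linked chains, fell by 0.27 ± 0.04 on the log2 scale, Ube2j2, an E2 anchored in the endoplasmic reticulum, fell by 0.28 ± 0.05, and Ube2s, the chain-extending E2 of the anaphase-promoting complex, fell by 0.18 ± 0.04, while Ube2h rose by 0.25 ± 0.04. Ube2j1, which is also anchored in the endoplasmic reticulum, was not called, with 145.6 and 148.3 CPM in the Bfar-/- libraries and 147.3 and 146.8 CPM in the wild-type libraries and a 95% interval from -0.09 to 0.08 on the log2 scale. Of 35 other ubiquitin ligases of T cells, 6 rose and 2 fell (22.9%, beside 26.8% of all genes), with a median of 0.04. All but Nedd4l, Traf5 and Siah1a had a mean of at least 20 CPM, where 35.0% of all genes were called. The rises numbered 4 without Bfar-/- replicate 1, 3 without Bfar-/- replicate 2, 3 without wild type replicate 1 and 3 in DESeq2. The largest of these changes was in Cblb, a RING ligase that restrains activation without costimulation. Cblb had 227.8 and 236.1 CPM in the Bfar-/- libraries, against 138.1 and 147.2 CPM in the wild-type libraries (log2 fold change 0.70 ± 0.04; edgeR adjusted p = 2.16e-08). Vhl, the recognition subunit for hypoxia-inducible factors, rose by 0.40 ± 0.07, and Peli1, a ligase that acts on c-Rel in T cells, rose by 0.24 ± 0.05, whereas Traf3 fell by 0.20 ± 0.05.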

How the data were processed

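RNA of CD4+ T cells was sequenced in 2 Bfar-/- and 2 wild-type libraries, grouped by GEO's labels. Per the file headers, the authors deposited for each gene its expected count, length and FPKM; a gene missing from a table was taken as 0. Bowtie and RSEM, without versions, and the build GRCm38 (mm10) are named in the submitters' processing notes; the sources used here give neither strand setting nor annotation release. RSEM splits reads shared by near-identical genes by estimation, so such genes are uncertain. The deposited FPKM values are the authors' division by length and depth.

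Expected counts were rounded and tested with edgeR 4.0.16 in R 4.3.3 (quasi-likelihood test, two-sided, genotype as the factor, TMM, filterByExpr with minimum count 10 and minimum total 15, Benjamini-Hochberg over 12677 genes). Standard errors are the absolute log2 fold change divided by the square root of F. With 2 libraries a group, an exact permutation test of single genes could not reach 0.05. In depth, 3 counts equal 0.152 to 0.157 CPM. Copies were genes sharing at least 20% of the 31-mers of GENCODE M21 transcripts. The fit was tested on simulated data. Alternatives used limma 3.58.1 and DESeq2 1.42.0. Genes named were the called members, the 8 with the highest mean FPKM, a fixed set of members and up to 4 genes with the smallest adjusted p per pathway list. Members, role groups and lists were chosen with earlier results of these data known. Rnf26, Rnf170, Rnf214, Rnf146, Rnf8-cmtr1, Ube2j1, Xcr1, Itgax and the promoter core were chosen after values were seen. For 1 interferon-stimulated gene, counted in its list, the values are not reported here.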

Additional observations from a re-analysis of the deposited data

How the results depend on the processing

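Against 16 members higher and 9 lower, DESeq2 gave 7 and 4, the test against a 1.2-fold change 2 and 0, and no filter on low counts 11 and 2. On log2(FPKM + 0.1) 3 members were lower and on log2(FPKM + 1) 4. Leaving out 1 library gave 4 to 11 higher and 2 to 9 lower. For all genes, against 1728 higher and 1670 lower, DESeq2 gave 921 and 786, the test against a 1.2-fold change 409 and 155, no filter 1051 and 877, log2(FPKM + 0.1) 1151 higher, and leaving out 1 library 812 to 1243 higher and 629 to 1112 lower. Over the genes tested, libraries that carry the same replicate number did not deviate together (correlation 0.01). This cannot show whether such libraries share a source, and no label says that they do. With a replicate block 19 members were higher and 12 lower. Bfar kept its call in every alternative. Rnf4 changed sign with log2(FPKM + 0.1) and log2(FPKM + 1) (-0.01 each), without Bfar-/- replicate 1 (-0.04) and without wild type replicate 1 (-0.02; 1 library left out, -0.04 to 0.06), Trim33 without Bfar-/- replicate 2 (0.00) and wild type replicate 2 (-0.02), and Trim25 without Bfar-/- replicate 1 (0.01; 1 library left out, -0.07 to 0.01); none was called. The cause of these shifts was not tested. Depth limits the 42 tested members below 20 CPM.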

Other observations

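The deposited tables also give an abundance-weighted transcript length. It was the same in all 4 tables for 77 of the 117 Rnf and Trim genes, and none of the 103 tested members differed in mean length by 5% or more between genotypes. Among the called members, Rnf152 had lengths of 8461 and 8436 bases in the Bfar-/- libraries, against 8466 and 8476 bases in the wild-type libraries. This is a difference of -0.3%. Rnf6 and Rnf20, also called, differed by -0.6% and -0.4%, and their lengths did not overlap between genotypes either. Rnf214, which was not called, had 3536 and 3528 bases in the Bfar-/- libraries. It had 3555 and 3607 bases in the wild-type libraries, a difference of -1.4%.

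Rnf8-cmtr1, a read-through locus by its name that the rule counts among the members, had 7.62 and 5.16 CPM in the Bfar-/- libraries and 4.59 and 9.11 CPM in the wild-type libraries, and its reads can be shared with Rnf8. Rnf146 shares 68.8% of its 31-mers, on the opposite strand, with Echdc1, so without a stated strand setting its reads cannot be told apart from those of that gene.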
